A study of Mus musculus with 9 samples.

Results

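The 6 genes described here, Syne1, Syne2, Syne3, Syne4, Sun1 and Sun2, encode the core proteins of the LINC complex, which links the nucleus to the cytoskeleton. They were taken by gene name from the count tables of the series and are 6 of the 43808 genes counted. Of the 6, 5 passed the filter on low counts and were tested; Syne3 did not.

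RNA was sequenced in bulk from HCs sorted from mice on postnatal day 1, in 9 libraries of 1 mouse each. The 3 genotypes had 3 mice each. Homozygous mutant mice carried 2 copies of the Mir96 Dmdo allele (Mir96Dmdo/Dmdo; mice 43, 46 and 47), heterozygous mice carried 1 copy (mice 45, 48 and 51), and wild-type mice carried none (Mir96+/+; mice 44, 55 and 59). All 9 mice also carried the Atoh1/nGFP reporter, a transgene in which Atoh1 regulatory sequence drives a nuclear green fluorescent protein. Dmdo (diminuendo) is a point mutation in the seed of miR-96, a microRNA made in sensory cells of the ear, and Dmdo/Dmdo mice are deaf. The Dmdo line was on C3HeB/FeJ and the reporter line on C57BL6, so that the mice came from a mixed background. Each library pooled cochlear and vestibular HCs from both ears of 1 mouse, and inner HCs, outer HCs and vestibular HCs cannot be told apart in it.

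SUN proteins span the inner nuclear membrane and bind lamins on its nuclear side. In the space between the nuclear membranes they bind the KASH domain of nesprins, which span the outer membrane and reach the cytoskeleton. Nesprin-1 (Syne1) and nesprin-2 (Syne2) bind actin in their giant forms, nesprin-3 (Syne3) binds plectin and so intermediate filaments, and nesprin-4 (Syne4) binds kinesin-1, a microtubule motor. In mice, loss of Syne4 or of Sun1 leaves outer HC nuclei out of place and the cells are later lost, and in people variants of SYNE4 cause deafness.

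The mature sequence of mouse miR-96 is shown first, since the genotypes differ in it. The seed, bases 2 to 8 from the 5′ end, is in capitals. The wild-type sequence is the one RefSeq gives for miR-96-5p at chr6:30169506-30169528 on the minus strand of GRCm38.p6. The Dmdo sequence was made from it with the A-to-T substitution of the allele, which falls on the single A of the seed (A7U in the RNA, counted from the 5′ end).
miR-96: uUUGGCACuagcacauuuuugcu
miR-96 Dmdo: uUUGGCUCuagcacauuuuugcu

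The 3′ UTRs of the 6 genes were searched for the sites these seeds would pair with, on the sense strand of the longest 3′ UTR that GENCODE vM21 annotates for each gene (GRCm38). A site was GTGCCAA or TGCCAAA for miR-96 and GAGCCAA or AGCCAAA for Dmdo. Where a match to seed bases 2 to 8 was followed by an A it is called an 8mer, without that A a 7mer-m8, and where an A followed a match to bases 2 to 7 only, a 7mer-A1. Of 12980 tested genes with a 3′ UTR, 19.7% held at least 1 miR-96 site and 19.4% at least 1 Dmdo site. Of the 6 genes, 2 held miR-96 sites in the 3′ UTR searched. Sun2 had 3 of them in a 3′ UTR of 1377 bases, a number that 0.817% of the tested genes reached or passed. Syne2 had 1 in 882 bases. The only Dmdo site lay in Syne1, in a transcript that ends inside the gene (Syne1-201). Other 3′ UTRs of a gene were not searched, so transcripts that run to the 3′ end of Syne1 may hold sites not counted here. Syne4, with an annotated 3′ UTR of 45 bases, Sun1 (1309 bases) and Syne3 (2232 bases) had none of these matches. The sites are given with their flanks, 5′ to 3′ on the transcript, with the matched bases in capitals.
Sun2 8mer, chr15:79725123-79725148, minus strand: actcctggtagGTGCCAAAgccatgg
Sun2 7mer-m8, chr15:79724887-79724912, minus strand: gactgttgtctGTGCCAAcctaagag
Sun2 7mer-m8, chr15:79724675-79724700, minus strand: ctcctgattcaGTGCCAAtagccaca
Syne2 7mer-A1, chr12:76110728-76110753, plus strand: atgtacagtaaaTGCCAAActacaga
Syne1 Dmdo 7mer-A1, chr10:5337181-5337206, minus strand: gatgtgcagatcAGCCAAAtcaaggt
A match is a stretch of letters and was not measured as a binding site.

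**Figure D1:**
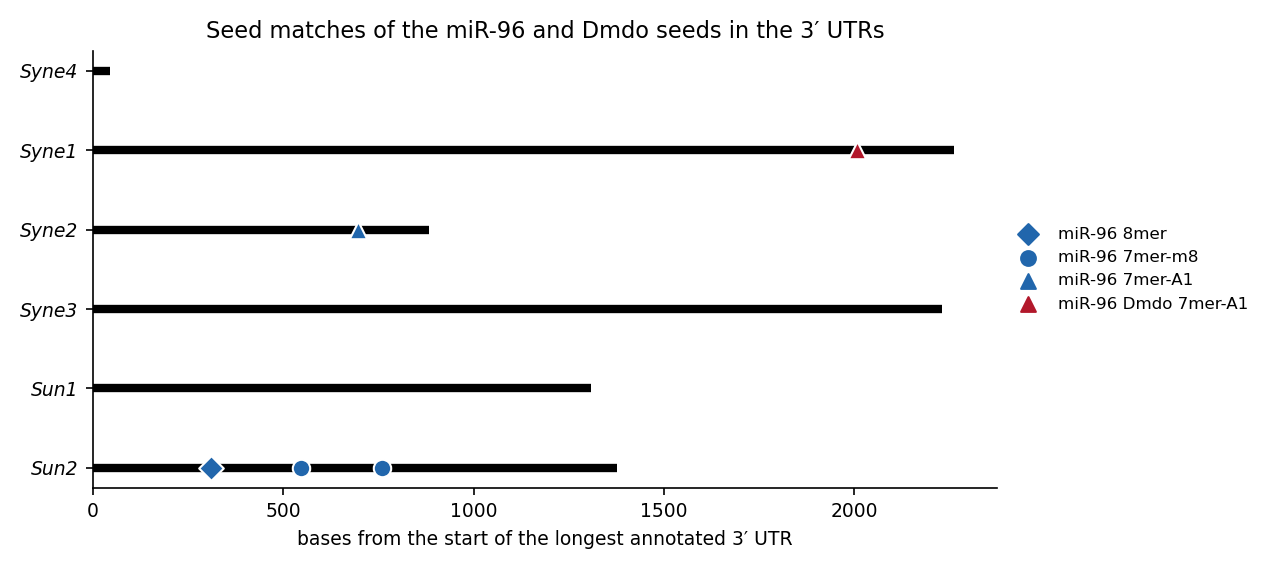
The longest annotated 3′ UTR of each gene is drawn as a bar from its first base (x axis, bases), and the seed matches are drawn on it by kind and by seed. The 3 miR-96 matches of Sun2 lie at bases 311, 547 and 759 of its 1377-base 3′ UTR, the match of Syne2 lies at base 696 of 882, and the Syne4 3′ UTR spans 45 bases.

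The libraries held 18175317 to 30932531 counted reads in homozygous mutant HCs, 29470207 to 34873964 in heterozygous HCs and 19677015 to 28486252 in wild-type HCs. Values are given below as CPM, the reads of a gene per 1000000 counted reads of its library. No pair of libraries of a genotype held the same values to within sampling noise (102.8 to 254.3 times the chi-square per gene that sampling of reads alone gives), so that none was taken for a library deposited in duplicate. Homozygous mutant 46 and wild-type 59 stood apart from the rest for several of the 6 genes. According to the methods of the study, RNA integrity was lower in a wild-type and in a homozygous mutant sample, whose mouse numbers are not stated. The ranges of sorted HC numbers given there reach lower for homozygous mutant samples than for the other genotypes. The part of RNA integrity or cell number in the values was not tested. HC markers were abundant in all 9 libraries. The summed CPM of 8 of them (Myo7a, Myo6, Pou4f3, Gfi1, Atoh1, Otof, Lhx3 and Espn) was 7850 to 9178 in homozygous mutant HCs, 9330 to 12708 in heterozygous HCs and 9368 to 13897 in wild-type HCs. The summed CPM of 6 supporting cell markers was 582 to 668 in homozygous mutant, 539 to 832 in heterozygous and 469 to 722 in wild-type HCs. Those of 4 glial markers were 102 to 257, 83.7 to 115 and 50.4 to 203 in the same order of genotypes, and those of 5 mesenchymal markers 50.3 to 709, 58.6 to 122 and 83.0 to 221. The red blood cell markers Hbb-bs and Hba-a1 were at 0 in every library.

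Syne4, the kinesin-binding nesprin (chr7:30314807-30319046, plus strand), had 181, 198 and 233 CPM in homozygous mutant HCs 43, 46 and 47, from 5019, 3602 and 7211 reads. In heterozygous HCs 45, 48 and 51 it had 220, 375 and 255 CPM. In wild-type HCs 44, 55 and 59 it had 350, 314 and 487 CPM, from 7826, 8957 and 9574 reads. Every homozygous mutant library lay below every wild-type library, while the heterozygous libraries overlapped both groups.

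The means were 204 ± 26.7 CPM in homozygous mutant, 283 ± 81.4 in heterozygous and 384 ± 90.9 in wild-type HCs (SD, n = 3 each). In the fit of all 15184 tested genes with edgeR, the fold change of homozygous mutant over wild-type HCs was 0.499 (95% confidence interval 0.337 to 0.740), a log2 fold change of -1.002 with an SE of 0.27. Its adjusted p was 0.107, just above the 10% false discovery rate that the study used as its threshold with DESeq2, and edgeR did not call it. DESeq2 on the same counts called it (adjusted p = 0.0214). The study names Syne4 in a protein interaction network enriched for genes lower in homozygous mutant HCs. With edgeR, Syne4 was called without wild-type 44 (adjusted p = 0.0438) or heterozygous 45 (adjusted p = 0.0968). Across the 3 genotypes as a dose of 0, 1 and 2 Dmdo alleles, Syne4 fell by 0.50 on the log2 scale for each allele (SE 0.13, adjusted p = 0.0681), or to 0.707 times the level, and was called. That call was lost without wild-type 59, heterozygous 51 or any of the homozygous mutants, at adjusted p of 0.108 to 0.269. Heterozygous over wild-type HCs gave a log2 fold change of -0.53 (SE 0.27) and homozygous mutant over heterozygous HCs one of -0.47 (SE 0.27), with adjusted p of 1.00 and 0.806. The heterozygous mean thus lay close to midway on the log2 scale, with intervals on either side that reach past 0 (-1.10 to 0.03 and -1.03 to 0.09).

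**Figure D2:**
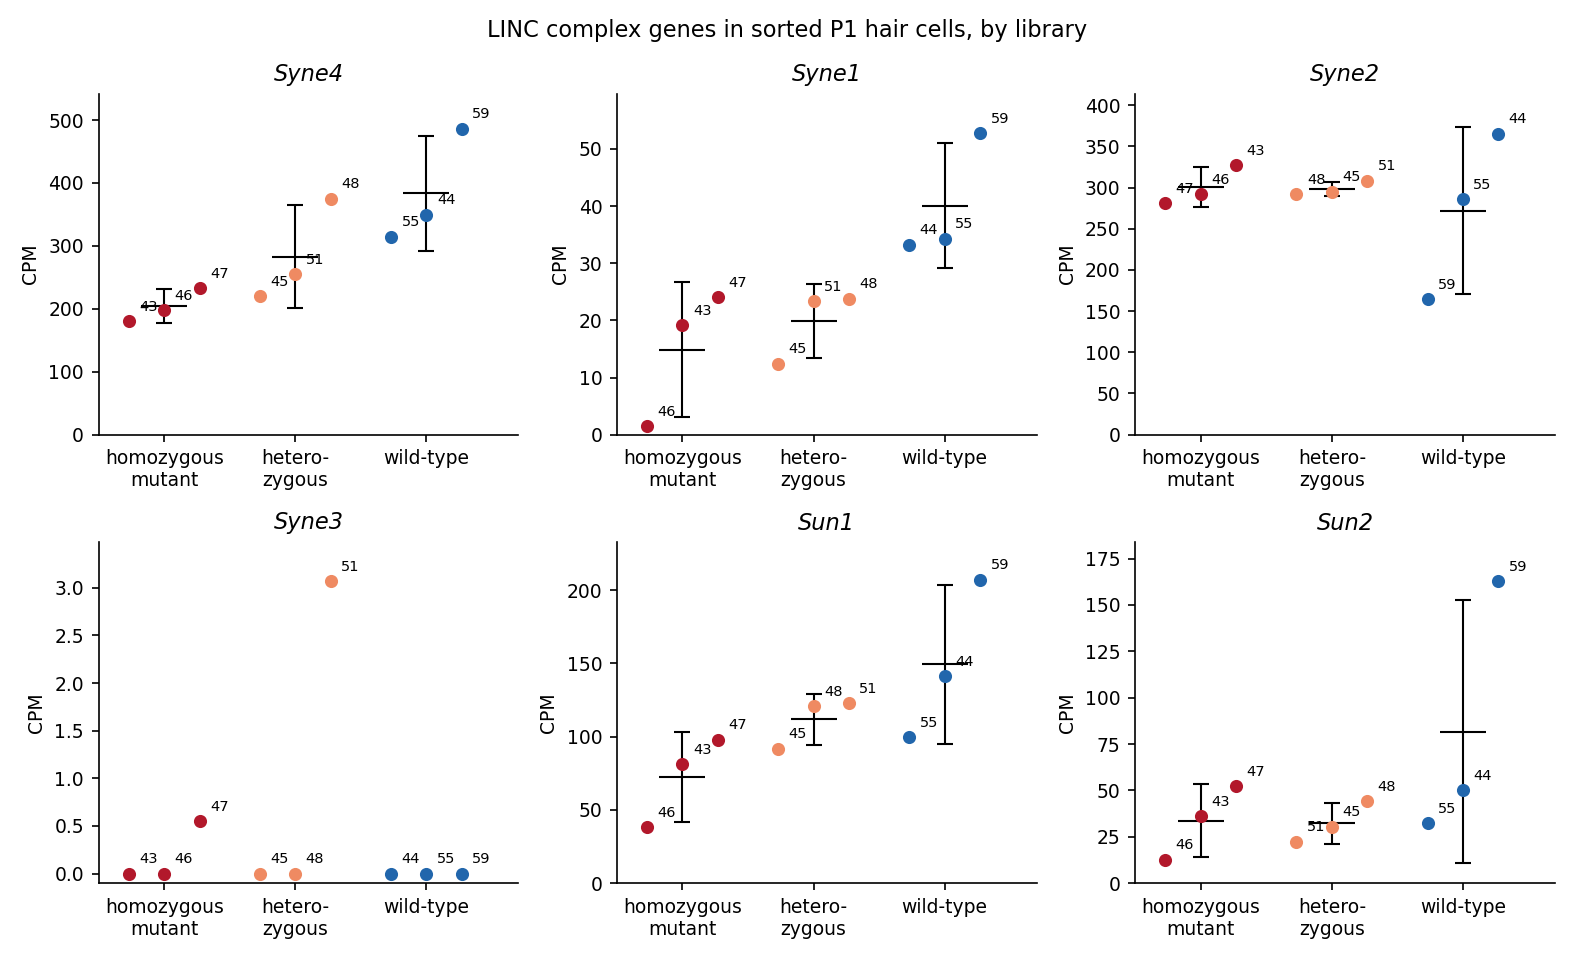
Each point is the CPM of a gene in 1 library, labelled with the mouse number, for homozygous mutant, heterozygous and wild-type HCs from left to right, with the mean and SD of 3 libraries as lines (none for Syne3); the y axes start at 0 CPM, with a small margin below it for Syne3. Syne4 lies at 181 to 233 CPM in homozygous mutant HCs, below the 314 to 487 CPM of wild-type HCs, and Syne2 shows no such order.

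Sun1 (chr5:139200637-139249840, plus strand) encodes an inner membrane partner of nesprins. It had 81.1, 38.2 and 97.8 CPM in homozygous mutant HCs 43, 46 and 47, and 91.7, 121 and 123 CPM in heterozygous HCs 45, 48 and 51. In wild-type HCs 44, 55 and 59 it had 141, 99.4 and 207 CPM. The homozygous mutant and wild-type groups did not overlap, but homozygous mutant 47 and wild-type 55 lay next to each other. Mean levels were 72.4 ± 30.7, 112 ± 17.4 and 149 ± 54.3 CPM in homozygous mutant, heterozygous and wild-type HCs (SD, n = 3 each).

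The log2 fold change of Sun1 in homozygous mutant over wild-type HCs was -1.14 (SE 0.36, adjusted p = 0.174 with edgeR), or 0.453-fold with an interval of 0.271 to 0.757. It was -0.52 (SE 0.35) in heterozygous over wild-type HCs and -0.63 (SE 0.35) in homozygous mutant over heterozygous HCs. For each Dmdo allele it was -0.57 (SE 0.17, adjusted p = 0.123). None of these was called, and the trend was called without wild-type 44 (adjusted p = 0.0768). Without both homozygous mutant 46 and wild-type 59, the lowest and the highest library of the gene, the value against wild-type was -0.48 (SE 0.33, adjusted p = 0.613). Leaving out these libraries raises the value by construction, here and for Sun2 and Syne1, so it shows their weight and is not an independent check.

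Sun2 (chr15:79724070-79742536, minus strand) encodes the other SUN protein of somatic cells and holds the 3 miR-96 matches shown above. It had 36.2, 12.7 and 52.2 CPM in homozygous mutant HCs 43, 46 and 47, and 30.4, 44.2 and 22.3 CPM in heterozygous HCs 45, 48 and 51. In wild-type HCs 44, 55 and 59 it had 50.2, 32.3 and 163 CPM. The 3 groups overlapped, and wild-type 59 stood far above the other 8 libraries, of which the highest had 52.2 CPM.

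The log2 fold change of Sun2 was -1.39 (SE 0.59, adjusted p = 0.314) in homozygous mutant over wild-type HCs and -1.45 (SE 0.59, adjusted p = 1.00) in heterozygous over wild-type HCs, both uncalled with edgeR. Without wild-type 59, one of the libraries high in the sex transcript Xist, they were -0.36 and -0.41, and without homozygous mutant 46 as well, the value of homozygous mutant over wild-type HCs was 0.05 (SE 0.47). Mean levels of Sun2 were 33.7 ± 19.9 CPM in homozygous mutant HCs and 81.7 ± 70.7 CPM in wild-type HCs (SD, n = 3 each). Their difference depended on wild-type 59 and homozygous mutant 46, and its direction was not settled. Whether the miR-96 matches bear on the level of Sun2 was not tested.

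Syne1 (chr10:5020917-5551482, minus strand), which encodes nesprin-1, had 19.2, 1.49 and 24.0 CPM in homozygous mutant HCs 43, 46 and 47, from 533, 27 and 743 reads. It had 12.4, 23.8 and 23.3 CPM in heterozygous HCs 45, 48 and 51, and 33.2, 34.3 and 52.7 CPM in wild-type HCs 44, 55 and 59. All 6 libraries with a Dmdo allele lay below all 3 without. Homozygous mutant 46 stood far below the other 8 libraries, of which the lowest had 12.4 CPM.

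The log2 fold changes of Syne1 had wide errors, at -1.53 (SE 0.72, adjusted p = 0.371) in homozygous mutant over wild-type HCs, -1.11 (SE 0.72, adjusted p = 1.00) in heterozygous over wild-type HCs and -0.42 (SE 0.71) in homozygous mutant over heterozygous HCs, none of them called. Without homozygous mutant 46, the values against wild-type and heterozygous HCs were -0.97 (SE 0.56) and 0.12. The Dmdo match of Syne1 shown above lies in the 3′ UTR of Syne1-201, a transcript of 6990 bases. The longest coding transcript of the gene has 27908 bases, and counts per gene do not tell them apart.

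Syne2 (chr12:75818134-76110926, plus strand), which encodes nesprin-2, did not follow the other members. It had 327, 292 and 281 CPM in homozygous mutant HCs 43, 46 and 47, 295, 292 and 308 CPM in heterozygous HCs 45, 48 and 51, and 365, 286 and 164 CPM in wild-type HCs 44, 55 and 59. The 6 libraries with a Dmdo allele spanned 281 to 327 CPM and lay within the range of the 3 wild-type libraries. Its log2 fold change in homozygous mutant over wild-type HCs was 0.07 (SE 0.26, adjusted p = 0.953), and the interval of the fold change was 0.718 to 1.53. A 1.5-fold lower level lies outside that interval and a 1.5-fold higher one just inside it. Wild-type 59 was the lowest library for Syne2 and the highest for Syne4, Sun1, Sun2 and Syne1, and without it the value for Syne2 was -0.18.

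Syne3 (chr12:104929933-105009809, minus strand), which encodes nesprin-3, had 0 reads in 7 of 9 libraries, where 0 reads allow up to 0.0898 to 0.165 CPM (3 reads, for counting error only). The other libraries were homozygous mutant 47, with 17 reads or 0.550 CPM, and heterozygous 51, with 107 reads or 3.07 CPM. Both the level and its spread were thus set by 1 library of each of those genotypes, and no fold change was computed. Plec, whose product plectin is the partner of nesprin-3, was at 25.0 to 91.7 CPM in homozygous mutant, 52.8 to 115 in heterozygous and 71.1 to 122 in wild-type HCs.

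Levels were compared between members per kilobase, as CPM divided by the length of the longest coding transcript. Syne4 was the highest member in 9 of 9 libraries, at 133 to 172 CPM per kb in homozygous mutant, 162 to 277 in heterozygous and 232 to 359 in wild-type HCs. It was 6.33 to 10.9 times the next member in the same library, and 5.00 to 8.15 times when lengths were taken over all annotated exons. Sun1 came next on the first scale in all libraries but homozygous mutant 46, where Syne2 did. It was at 9.25 to 23.6 CPM per kb in homozygous mutant, 22.2 to 29.7 in heterozygous and 24.0 to 50.1 in wild-type HCs. Syne2, at 13.0 to 15.1, 13.5 to 14.2 and 7.57 to 16.8 CPM per kb in the same order of genotypes, did not differ from Sun1 beyond the spread in homozygous mutant HCs. Sun2, at 3.34 to 13.7, 5.85 to 11.6 and 8.48 to 42.8 CPM per kb, overlapped Syne2 in homozygous mutant and wild-type HCs. Syne1, at 0.0532 to 0.861, 0.444 to 0.851 and 1.19 to 1.89 CPM per kb, and Syne3, at 0 to 0.583 CPM per kb over the 9 libraries, were lowest. Over all exons, Syne2 stood above Sun1 in homozygous mutant 43 and 46, and Sun2 above Sun1 in wild-type 59. Both scales use the full lengths of Syne1 and Syne2, which also have annotated coding transcripts of 6990 and 7335 bases. Division by a shorter length would give them higher values per kb, and which transcripts were present was not tested.

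Taken as a list, 0 of the 5 tested members were called by edgeR between homozygous mutant and wild-type HCs, where 1.15% of all 15184 genes were called and 0.915% were called lower. With an unadjusted p under 0.05 there were 4 members, Syne4, Sun1, Sun2 and Syne1, all lower in homozygous mutant HCs, beside 1991 of all genes (13.1%). The same counts gave 2 members with DESeq2, Syne4 (adjusted p = 0.0214) and Sun1 (adjusted p = 0.0710), where 6.32% of all genes were called, and 1 with limma-voom, Syne4 (adjusted p = 0.0967), where 2.23% of all genes were called. The median log2 fold change was -1.14 over the 5 members and -0.02 over all genes. By their levels alone, 3 of the 5 members (Syne4, Sun1 and Syne1) had every homozygous mutant library below every wild-type library, as did 7.72% of all genes, and 1 (Syne1) had every heterozygous library below every wild-type library, as did 4.11% of all genes.

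Between heterozygous and wild-type HCs, edgeR called 0 of 5 members and 0.0% of all genes. DESeq2 (0.296% of all genes) and limma-voom (0.00659%) called no member. With edgeR, 1 member (Sun2) had an unadjusted p under 0.05, as did 4.52% of all genes. Between homozygous mutant and heterozygous HCs, edgeR called 0 of 5 members and 0.00659% of all genes. Again no member was called by DESeq2 (0.962% of all genes) or limma-voom (0.994%). With edgeR no member had an unadjusted p under 0.05, where 6.78% of all genes did. In the trend over Dmdo alleles, 1 of 5 members (Syne4, lower) was called, where 1.78% of all genes were called and 1.34% were called lower. These comparisons share libraries, and their values are not independent of each other.

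**Figure D3:**
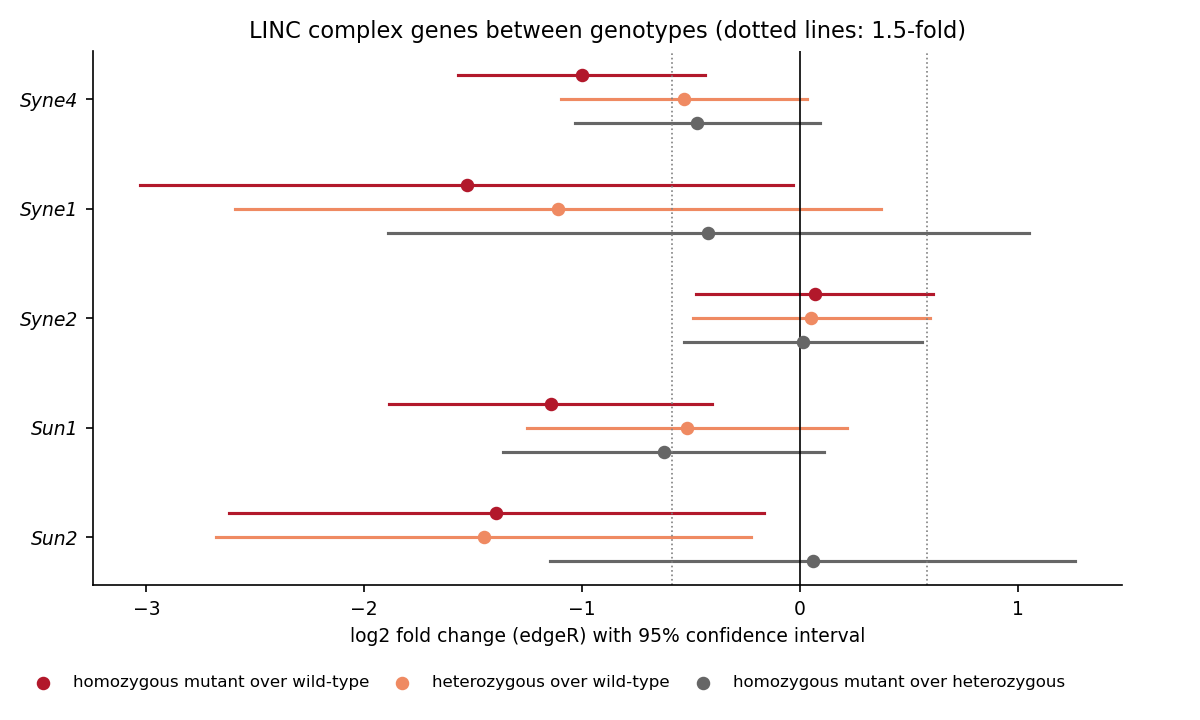
Points are log2 fold changes from edgeR and lines their 95% confidence intervals, for homozygous mutant over wild-type, heterozygous over wild-type and homozygous mutant over heterozygous HCs, with 3 libraries per genotype; dotted lines mark 1.5-fold. The values of Syne4 and Sun1 in homozygous mutant over wild-type HCs are -1.002 and -1.14, those in heterozygous HCs about -0.53 and -0.52, and Syne2 is near 0 in all 3.

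The calls were close to the threshold and moved with the settings. The log2 fold change of Syne4 in homozygous mutant over wild-type HCs was -1.14 to -0.60 under 18 alternatives and never changed sign, and its adjusted p was 0.0214 to 0.803. The sex of the mice is not given. Xist, a transcript of the inactive X chromosome, had 17313 to 28296 reads in wild-type 44, wild-type 59 and heterozygous 48 and 58 to 286 in the other 6 libraries, and the Y-linked gene Ddx3y had 4 to 19 reads in those 3 and 670 to 1554 in the others. The 3 libraries high in Xist were also the 3 highest for Syne4, and no homozygous mutant library was among them. Every homozygous mutant library was high in Ddx3y, so sex and genotype cannot be fully told apart. Among the libraries high in Ddx3y, Syne4 had 181 to 233 CPM in 3 homozygous mutants, 220 and 255 CPM in 2 heterozygotes and 314 CPM in 1 wild-type, and Sun1 had 38.2 to 97.8, 91.7 and 123, and 99.4 CPM. With a term for these transcripts in the fit, the value of Syne4 in homozygous mutant over wild-type HCs was -0.60 (SE 0.31, adjusted p = 0.803), and per allele -0.30 (adjusted p = 0.732). With that term the values of Sun1 and Sun2 in homozygous mutant over wild-type HCs were -0.74 (SE 0.45) and -0.35 (SE 0.68), against -1.14 and -1.39 without it.

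All homozygous mutants also had mouse numbers of 47 or lower. Within those numbers, Syne4 had 181 to 233 CPM in the 3 homozygous mutants, 220 CPM in heterozygous 45 and 350 CPM in wild-type 44. Among the mice numbered 48 or higher, it had 255 and 375 CPM in heterozygotes and 314 and 487 CPM in wild-type HCs, and there was no homozygous mutant. With a term for the mouse number, the value of Syne4 was -0.73 (SE 0.28, adjusted p = 0.593). No source used here says whether the numbers mark litters or preparation days.

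**Figure D4:**
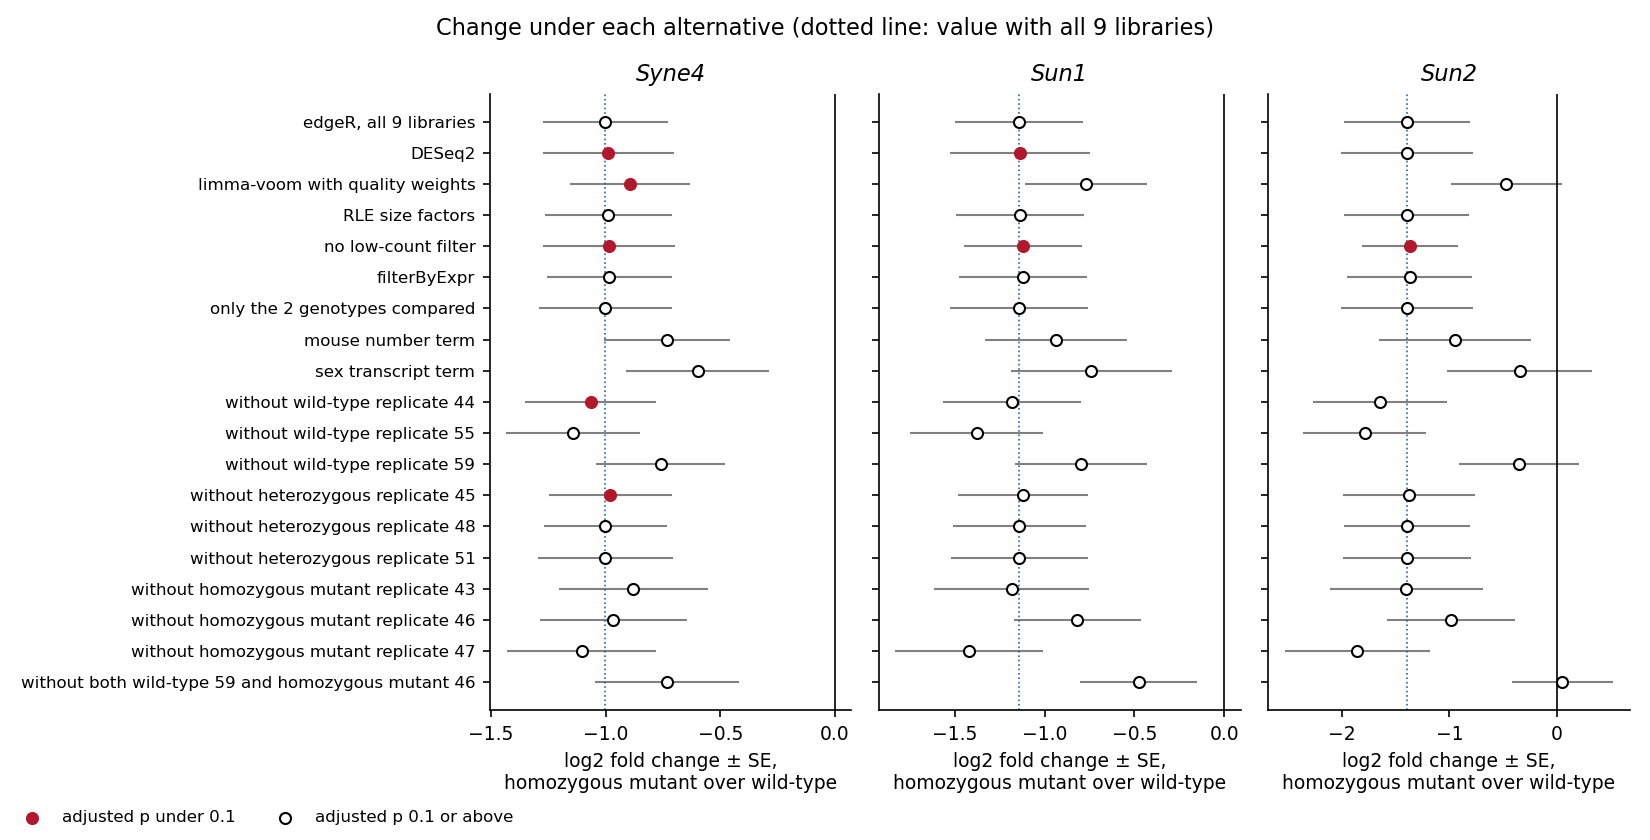
Points are the log2 fold changes of Syne4, Sun1 and Sun2 in homozygous mutant over wild-type HCs with the SE as lines, for the fit of all 9 libraries (top row) and 18 alternatives below it; filled points have an adjusted p under 0.1. Syne4 stays between -1.14 and -0.60, while Sun2 reaches 0.05 without homozygous mutant 46 and wild-type 59.

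In bulk samples, fewer cells of a type and less RNA per cell cannot be told apart. The summed CPM of the 8 HC markers, given above, was lower in every homozygous mutant than in every wild-type library. Otof had the highest mean of the 8, at 2522 CPM in homozygous mutant and 4983 CPM in wild-type HCs, and so weighed most in the sum. Myo6, the next highest, had means of 2036 and 2040 CPM. By edgeR, 1 of the 8 was called. Espn, which encodes an actin bundler of stereocilia, was called lower in homozygous mutant HCs (log2 fold change -1.18, SE 0.23, adjusted p = 0.0236), a call kept in 13 of 18 alternatives and lost without homozygous mutant 43 or 47, without wild-type 59, without both homozygous mutant 46 and wild-type 59 and with the term for sex transcripts (log2 -1.07, -1.21, -1.10, -1.14 and -1.16, adjusted p of 0.104 to 0.313). Otof, Myo7a and Gfi1, at -1.07, -0.88 and -0.69, were not called by edgeR (adjusted p = 0.125, 0.141 and 0.216), nor were Pou4f3, Lhx3, Atoh1 and Myo6, which lay between -0.11 and 0.03. The study, with DESeq2, lists Espn, Otof, Myo7a and Gfi1 among the genes lower in homozygous mutant HCs. In the ratio to the 8 summed markers of the same library, chosen after the values were seen, Syne4 had a mean log2 of -5.37 ± 0.07 in homozygous mutant HCs and -5.01 ± 0.38 in wild-type HCs (SD, n = 3 each). The difference of homozygous mutant minus wild-type HCs was -0.36 on this scale, against -0.89 for log2 CPM, and the groups overlapped. For Sun1 it was -0.55 against -1.09, for Sun2 -0.62 against -1.15, for Syne1 -1.62 against -2.15 and for Syne2 0.75 against 0.22. The ratio moves the difference of every gene by the same amount, which the marker sums set. Its shift is thus not a result about any member. Of the 6 supporting cell markers, 5 were not called by edgeR in any comparison, at -1.29 (Prox1) to 0.45 (Hes5) in homozygous mutant over wild-type HCs. Epyc, the remaining one, was called higher by edgeR in the trend alone (log2 2.17 per allele, SE 0.52, adjusted p = 0.0663), at 7.52 to 154 CPM in homozygous mutant, 4.93 to 7.42 in heterozygous and 0.356 to 7.55 in wild-type HCs. That call was kept in 6 of 17 alternatives, and without homozygous mutant 46 the value was 1.17 (adjusted p = 0.543). In homozygous mutant over wild-type HCs Epyc was at log2 4.34 (SE 1.16, adjusted p = 0.120 with edgeR). It was called there in 3 of 18 alternatives, DESeq2 among them (adjusted p = 0.00133), and without homozygous mutant 46 it was at 2.36. The part of cell makeup in the values of the members was not tested.

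Ratios between members within a library do not depend on how libraries are scaled. The log2 ratio of Syne4 to Syne2 reads was -0.56 ± 0.29 in homozygous mutant HCs and 0.55 ± 0.89 in wild-type HCs (SD, n = 3 each). The homozygous mutant libraries, at -0.86, -0.56 and -0.27, all lay below the wild-type ones, at -0.06, 0.14 and 1.57, with a difference of -1.11 (exact two-sided permutation p = 0.1, the smallest that 3 against 3 libraries can give). Without wild-type 59 the difference was -0.60. The ratio of Syne4 to Sun1 was 1.59 ± 0.68 in homozygous mutant and 1.40 ± 0.23 in wild-type HCs (difference 0.19, exact permutation p = 0.9). Those to Sun2 and Syne1 differed by 0.26 and 1.22 (exact permutation p = 0.7 and 0.5), and without homozygous mutant 46 the differences for Sun1, Sun2 and Syne1 were -0.20, -0.32 and -0.010. These are 4 unadjusted tests, none of which could have passed a threshold below 0.1.

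The genes of the wider machinery of nuclear positioning were followed in 5 lists, and 0 of their 49 tested genes were called in any comparison by edgeR. With an unadjusted p under 0.05 there were 9 of 49 in homozygous mutant over wild-type HCs, 7 of them lower, beside 13.1% of all genes. There were 2 in heterozygous over wild-type HCs (4.52% of all genes), 4 in homozygous mutant over heterozygous HCs (6.78%) and 10 in the trend (13.2%). DESeq2 called 2 of the 49, Bicd1 and Dynll2, both against wild-type and in the trend, where it called 6.32% and 6.84% of all genes. Limma-voom called 1, Dynlrb1, in homozygous mutant over heterozygous HCs (0.994% of all genes) and 3, Dynll1, Dynll2 and Klc2, in the trend (5.16%). Of the other SUN and KASH genes, most of which are best known from germ cells, Sun3, Sun5 and Irag2 had no reads, Kash5 did not pass the filter, and Spag4 was at 0 to 2.84 CPM in homozygous mutant, 1.12 to 3.56 in heterozygous and 0 to 4.65 in wild-type HCs. All 16 genes for lamins and inner nuclear envelope partners were tested. Their median log2 fold change in homozygous mutant over wild-type HCs was -0.10, with 10 of 16 below 0. Those with the smallest p were Tmem201 at -0.77, a partner of SUN proteins, Tor1aip1 at -1.35, the activator of torsin ATPases, and Banf1 at 0.82, which binds chromatin and LEM proteins (adjusted p = 0.380, 0.342 and 0.397). Lmna, for A-type lamins, was at -0.11.

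Kinesin-1, the motor that nesprin-4 binds, is encoded by 7 heavy and light chain genes here, whose median was -0.37. Klc2, a light chain, was at -0.81 (SE 0.32, adjusted p = 0.283), Kif5a at -0.90 (SE 0.39, adjusted p = 0.317) and Kif5c, another heavy chain, at 0.48 (adjusted p = 0.454). Kif5b, the widely expressed heavy chain, had 230 to 382 CPM in homozygous mutant, 342 to 450 in heterozygous and 338 to 488 in wild-type HCs, at a log2 fold change of -0.37.

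Cytoplasmic dynein, the motor of the opposite direction, was followed in 21 genes with its activator dynactin and adaptors, at a median of -0.09. Bicd1, an adaptor, had the largest value of the list, at 27.2 to 54.0 CPM in homozygous mutant, 25.2 to 34.2 in heterozygous and 6.96 to 12.8 in wild-type HCs, with a log2 fold change of 1.86 (SE 0.59, adjusted p = 0.179). It was called with DESeq2 but not with edgeR. Dynll2, a light chain, was at -0.70 (SE 0.23, adjusted p = 0.196) and Dctn6, a dynactin subunit, at -0.92 (SE 0.42, adjusted p = 0.346). Of 4 cytoskeletal linkers, Macf1 was at 0.69 and Plec at -0.77 (adjusted p = 0.282 and 0.440), and Fhod1, a formin that binds nesprin-2, was at 1.56 with an SE of 1.63.

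**Figure D5:**
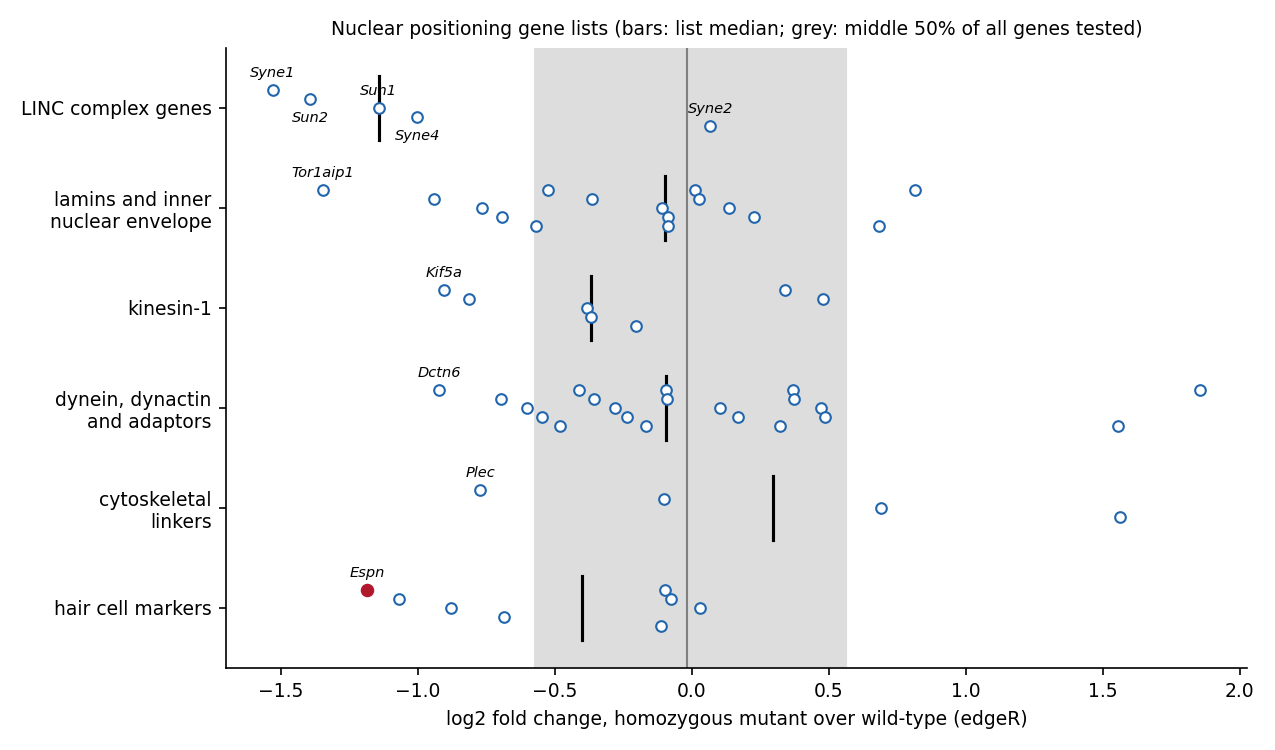
Each point is the log2 fold change of a gene in homozygous mutant over wild-type HCs (edgeR), by list, with the list median as a bar and the filled point the only gene called; the grey band holds the middle 50% of all 15184 tested genes and the grey line their median. The median of the LINC complex genes is -1.14, those of the lamin, kinesin-1, dynein and linker lists are -0.10, -0.37, -0.09 and 0.30, and that of the HC markers is -0.40.

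The genes whose log2 CPM followed a member most closely over the 9 libraries are given as a description, since all points share their libraries and scaling. For Syne4 they were Hdac5 (Pearson r = 0.980), a histone deacetylase, Atp1b1 (r = 0.956), a subunit of the sodium pump, and Rogdi (r = 0.953). Hdac5 had 265, 241 and 305 CPM in homozygous mutant, 322, 456 and 362 in heterozygous and 437, 391 and 555 in wild-type HCs. Like Syne4 it was highest in wild-type 59. Its homozygous mutant libraries all lay below the wild-type ones, as did those of 7.72% of all genes. For Sun1 they were Clec18a (r = 0.976), Tbc1d9 (r = 0.974) and Txnl4a (r = 0.965), for Sun2 Tedc2 (r = 0.963), Wsb2 (r = 0.951) and Prps2 (r = 0.939), and for Syne1 Rpap1 (r = 0.990), Pex14 (r = 0.986) and Tuft1 (r = 0.985). The genes for Sun2 were highest in wild-type 59, as was Sun2. Those for Syne1 were lowest in homozygous mutant 46, where Rpap1 had 3.03 CPM and Syne1 1.49 CPM. For Syne2 they were Ndufaf8 (r = 0.972) and the processed pseudogenes Gm5814 (r = 0.980) and Gm6365 (r = 0.970), all below 1 CPM in wild-type 59.

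Of 7 annotated genes that overlap the members, the 5 with counts had 0 reads in every library, and Gm48836 and Gm23573, which lie in Syne1, were not analysed here. The antisense gene 4930520M14Rik shares 302 exon bases with Sun1 and Gm16575 shares 147 with Sun2, and Mir5101 lies in Syne2. The library kit kept strand, but no source used here says whether the counting did.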

How the data were processed

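Per the labels, RNA of sorted HCs (GFP+ CD326+, per the study's methods) was made into strand-specific libraries from nanogram amounts with many PCR cycles and no molecular identifiers. The floors for 0 reads take reads as independent and cover counting error only, whereas the intervals of fold changes use the spread between mice. The authors used HISAT2 2.0.4 for alignment to GRCm38 and HTSeq for counting per gene; the deposited values are raw read counts for 43808 genes, with no normalization. No source used here gives the version or strand setting of HTSeq.

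A gene was tested if any genotype had 2 or more of its 3 replicates at 20 reads or above, which 15184 genes met. The study used DESeq2; here the counts were fitted with edgeR 4.0.16 (robust quasi-likelihood, TMM normalization, all 9 libraries in 1 fit), with Benjamini-Hochberg adjustment over all genes tested. Calls needed a false discovery rate under 10% and, except in the trend over Dmdo alleles, a fold change above 1.5. Intervals are 95% and not adjusted. Ratios used a prior count of 2. DESeq2 1.42.0, limma-voom 3.58.1 with quality weights and the other alternatives are given in the closing section. R 4.3.3, Python 3.11.15 and scipy 1.17.1 were used, and the fit was tested on simulated counts. For homozygous mutant over wild-type HCs it called 4 of 50 genes set at 2-fold and 22 of 48 set at 4-fold. It called 5 of 14370 genes set at no change. A member left uncalled is therefore not shown to be unchanged. Each mouse is a library and a replicate. Coordinates and 3′ UTRs are from GENCODE vM21 (GRCm38), in which 43756 of the genes were found, and the miRNA sequence from RefSeq (GRCm38.p6).

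Named genes were every member, the 3 genes of highest Pearson r with each tested member, and from each pathway list every gene called and up to 3 of smallest p in homozygous mutant over wild-type HCs; Lmna, Kif5b, Plec with Syne3, Dynlrb1 and Dynll1, and markers besides Espn and Epyc were named after their values were seen. The members and lists were chosen with earlier results of these data known. The alternatives other than the ratio to HC markers were listed as planned, but not all were blind to values and labels. The fit without both wild-type 59 and homozygous mutant 46 leaves out libraries that stood apart for several members. The mouse number term divides the mice after number 47, so that all homozygous mutants fall on the same side. These alternatives are therefore not prespecified, independent checks.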

Additional observations from a re-analysis of the deposited data

How the results depend on the processing

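No paired analysis was possible because the genotypes share no mouse numbers. Syne4, Sun1 and Syne1 kept a negative log2 fold change of homozygous mutant over wild-type HCs under all 18 alternatives, at -1.14 to -0.60, -1.42 to -0.48 and -2.06 to -0.70. The number of members called in that comparison, 0 of 5 in the reported fit, was 2 with DESeq2 (Sun1 and Syne4), 1 with limma-voom and quality weights (Syne4) and 3 with no low-count filter (Sun1, Sun2 and Syne4). Of all genes, the reported fit called 175 of 15184, DESeq2 959, limma-voom 338 and the fit with no low-count filter 562 of 20115. With each library left out in turn, 0 to 1 member was called. The call was Syne4 without wild-type 44 (697 of 14953 genes called) or heterozygous 45 (235 of 14858). In the trend, where 1 member was called, the number was 2 with DESeq2 and with no low-count filter (Sun1 and Syne4). It was 0 with the mouse number term, with the sex transcript term and when wild-type 59 and homozygous mutant 46 were both left out. With each library left out it was 0 to 2. Of all genes, these trend fits called 270 of 15184 as reported, 1038 with DESeq2 and 466 of 20115 with no low-count filter. They called 59 with the mouse number term, 15 with the sex transcript term and 21 of 14868 without both libraries. With each library left out they called 34 of 14915 to 920 of 14953. The trend call of Syne4 was lost without heterozygous 51, without any of the homozygous mutants or without wild-type 59, at adjusted p of 0.108 to 0.269. RLE size factors and filterByExpr kept the reported numbers of members called, as did a fit of only the genotypes compared, which has no trend.

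Small or library-bound values changed sign. Syne2 in homozygous mutant over wild-type HCs was -0.12 with the mouse number term, -0.15 without both libraries named above, and -0.18 to 0.34 with each library left out. In heterozygous over wild-type HCs it was -0.18 without both and -0.19 to 0.32, in homozygous mutant over heterozygous HCs -0.21 with the mouse number term and -0.027 to 0.063, and in the trend -0.037 with that term, -0.075 without both and -0.081 to 0.16. Syne1 in homozygous mutant over heterozygous HCs was 0.10 with the mouse number term, 0.12 without both libraries and -0.95 to 0.12 with each left out. Sun2 was 0.052 in homozygous mutant over wild-type HCs and 0.026 in the trend without both libraries, and -0.41 to 0.45 in homozygous mutant over heterozygous HCs with each left out. The Syne4 ratios, homozygous mutant minus wild-type, kept their sign under a prior count of 0.5, but with each library left out those to Syne1, Sun1 and Sun2 were -0.010 to 1.85, -0.20 to 0.41 and -0.32 to 0.62, negative without homozygous mutant 46 and, for Sun2, also without wild-type 59. That to Syne2 was -1.41 to -0.60, with -0.60 without wild-type 59. The cause was not tested. Syne3 had too few reads for a fold change and Syne1 had 27 reads in homozygous mutant 46. The part of depth in the errors of the other members was not tested.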
